A study of Homo sapiens and Mus musculus with 100 samples.

Results

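HepG2, a line grown from a human liver tumour that still makes many hepatocyte proteins, was compared at day 3 with and without vitamin B2. The comparison holds 6 of the 100 libraries of the series. Its libraries were chosen by the sample labels alone, which give the cell line, the day and the treatment. The treated group is 3 libraries labelled HepG2_Day3_B2_minus, from cells given the treatment named vitamin B2 deficiency. It is set against 3 libraries labelled HepG2_Day3_Cont, from control cells of the same day. No guide RNA, inhibitor or added metabolite is named for either group. The same line was also sampled at days 6, 9 and 12 with its own controls at each day, which makes 24 time-course libraries. Day 3 is the earliest of these times. The sources used here do not give what the control medium held or how long the cells had grown before day 3. The replicates carry numbers 1 to 3 and no note of separate cultures, so the p-values below measure the spread between these libraries, which may be technical.

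Vitamin B2, riboflavin, is taken up by transporters of the SLC52 family and turned into the cofactors FMN and FAD by riboflavin kinase (RFK) and FAD synthetase (FLAD1). Flavoproteins use these cofactors for electron transfer in fatty acid oxidation, the respiratory chain, thioredoxin and glutathione reduction and oxidative protein folding. A cell can read stress of this kind through several transcription factors, among them NRF2 (oxidants and electrophiles), ATF4 (amino acid shortage and other causes of eIF2α phosphorylation), XBP1 and ATF6 (misfolded protein in the endoplasmic reticulum), SREBP-2 (sterol shortage) and AhR (small aromatic ligands).

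Levels are TPM, a length-scaled measure of transcript abundance, as deposited. The libraries come from a kit that reads the 3′ ends of messages while TPM divides by transcript length, so each gene was compared between libraries and genes were not compared with each other. A fold change is a difference of mean log2(TPM + 1), B2_minus over control, and it understates the change of genes with few transcripts. A gene was called higher or lower where the limma adjusted p (Benjamini-Hochberg over all 12488 genes tested) was under 0.05. In bulk RNA, fewer cells of a kind and less RNA per cell cannot be told apart.

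Reads recovered from the values numbered 7826200 to 8652300 in the B2_minus libraries and 7392000 to 7957800 in the control libraries, to the nearest 100. On the first principal component, which held 49.5% of the variance of the 6 libraries, the groups separated. The second, with 16.1%, spread the B2_minus libraries from 5.17 for library 1 to -6.8 for library 3, while the control libraries lay between -0.67 and 0.99. All 10 hepatocyte markers were detected, ALB at 2636 to 2839 TPM in the B2_minus libraries and 2982 to 3121 TPM in the control libraries, and their sum was 13370 to 13720 TPM against 14200 to 14670 TPM. Of these 10, 4 were lower and 0 higher by the test described above. Markers of other sources were at or near 0 (endothelium, summed 0.207 to 0.297 TPM against 0.152 to 0.266 TPM) apart from single genes. Of 8 leukocyte markers, TYROBP was 0 in all 6 libraries and PTPRC at most 0.03 TPM, whereas LYZ had 462 to 496 TPM in the B2_minus libraries and 532 to 577 TPM in the control libraries, and the whole list summed to 470.6 to 504.2 TPM against 540.8 to 584.5 TPM. Of 8 colon markers CDX1, LGALS4 and GPA33 were 0 in all 6 libraries, and VIL1 carried most of a sum of 22.56 to 23.26 TPM against 26.06 to 29.41 TPM. Of 8 fibroblast markers DCN was 0 throughout and ACTA2 carried most of 71.66 to 78.41 TPM against 66.8 to 72.95 TPM. The part of such markers in the results below was not tested. Of 5 markers of the HEK293 kidney line, NEFL and NEFM were 0 throughout, and LIN28B, which HepG2 also expresses, carried most of 12.17 to 13.37 TPM against 13.37 to 14.82 TPM.

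At day 3, 592 genes differed, 4.74% of those tested. Of these 342 (2.74% of all tested) were higher and 250 (2.0%) lower in B2_minus cells. Most shifts were small. The median size among the called genes was 0.36 on the log2 scale, 18 genes reached a log2 fold change of 1 or more in size (14 higher, 4 lower), and the median over all genes tested was 0.02. In 591 of the 592 called genes the 3 B2_minus libraries lay wholly above or below the 3 control libraries, a pattern found in 24.9% of all genes tested. The exception was CCL20. Of the 18 genes past 1, those under a mean of 10 TPM, named after their values were seen, were SLC7A11, CPLX2, SP140, AKR1B15, CSTA, GPAT3 and SNORD1B among the higher and SNAR-F, RNA5S9 and AGR2 among the lower. CPLX2, complexin 2, a protein of vesicle release, had 14.0, 15.3 and 15.0 TPM in the B2_minus libraries and 5.30, 5.27 and 4.87 TPM in the control libraries. Its groups were far apart (log2 fold change 1.36, SE 0.08, adjusted p = 3.21e-10). With 1 library left out, the higher count was 215, 220 and 247 without B2_minus libraries 1, 2 and 3 and 220, 230 and 236 without control libraries 1, 2 and 3. The lower count was 163, 131 and 157 without B2_minus libraries 1, 2 and 3 and 146, 131 and 156 without control libraries 1, 2 and 3. A core of 239 genes (149 higher, 90 lower) was called in all 6 of these smaller fits.

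**Figure D1:**
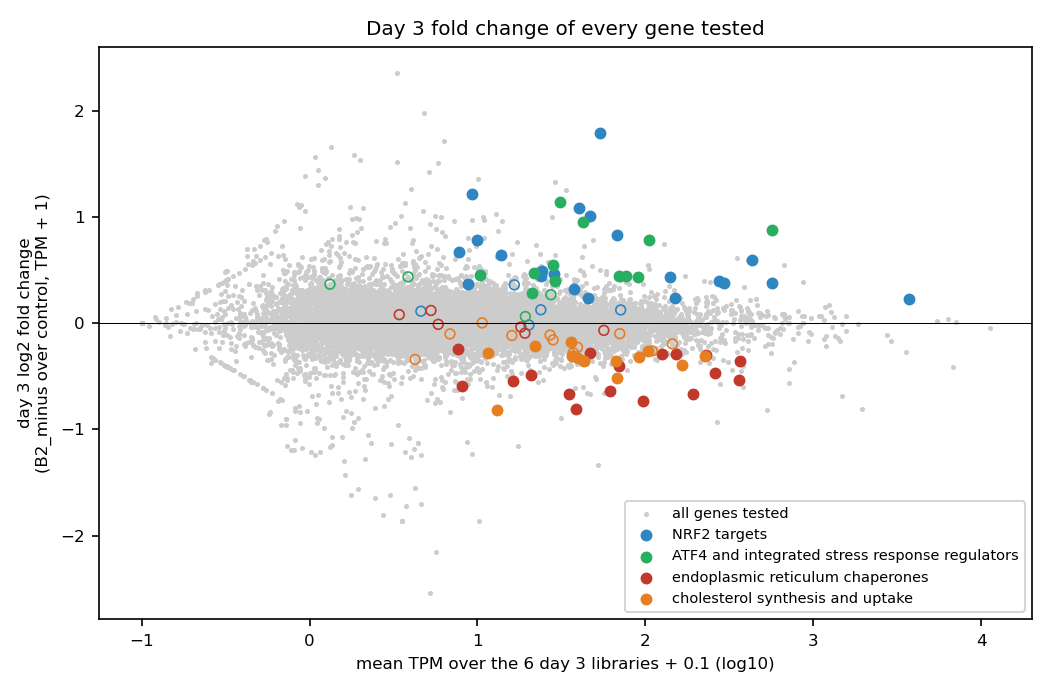
Day 3 log2 fold change (B2_minus over control, on TPM + 1) against the mean TPM of the 6 libraries (log10, with 0.1 added) for all 12488 genes tested, in grey, with 4 gene lists in colour. Filled symbols passed the limma threshold of 0.05 and open ones did not. The NRF2 and ATF4 lists lie mostly above 0, and the endoplasmic reticulum chaperones and cholesterol genes mostly below it.

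Among genes with a mean of at least 10 TPM, the 12 highest included AKR1B10, PTGR1, STC2, TXNRD1, ASNS, SRXN1, IGFBP1, INHBE, DDIT4, GDF15 and RASD1, with log2 fold changes of 1.79 down to 0.87. The 12 lowest were SNAR-E, MT1X, MVD, MT1F, SDF2L1, HSPA5, MT1E, HYOU1, MANF, NUCB2, PDIA4 and MAGED1, at -1.34 to -0.62. In all 24 the 2 groups of libraries did not overlap. MT1E and MT1F lost their call in every fit with 1 library left out, and SNAR-E lost it without B2_minus library 1 (adjusted p = 0.0578). The other 21 held in all 6.

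**Figure D2:**
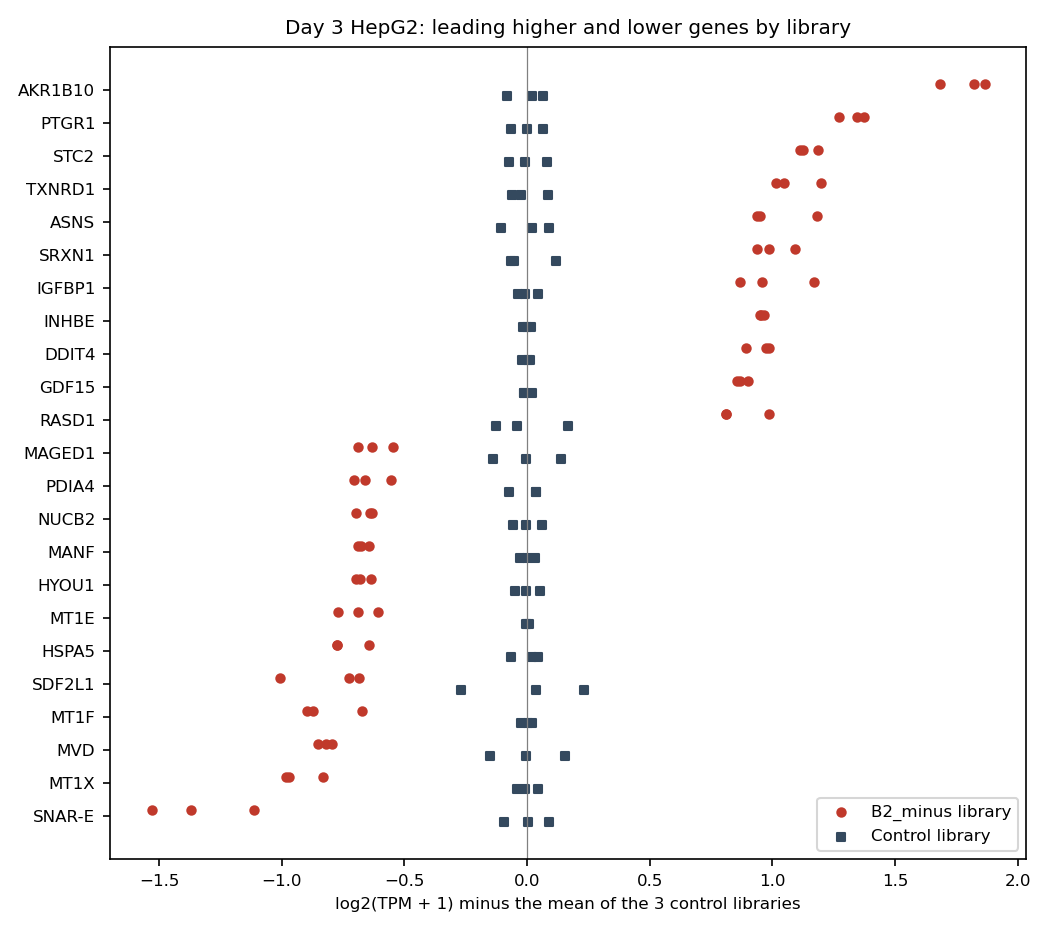
Level of 23 genes from among the 12 highest and 12 lowest in each day 3 library, as log2(TPM + 1) minus the mean of the 3 control libraries. Circles are B2_minus libraries and squares control libraries. No gene has overlapping groups, and the distance is greatest for AKR1B10, at 1.79, and SNAR-E, at -1.34.

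Targets of NRF2, the factor that answers oxidants and electrophiles, rose together. Of 26 tested members 21 were higher and 0 lower, where 2.74% of all tested genes were higher. The list's median log2 fold change was 0.41, and 2 of the 28 genes on the list were too low to test. AKR1B10, an aldo-keto reductase that reduces reactive carbonyls and retinal (chr7:134527592-134541414 in the authors' file, hg38), had 85.7, 77.9 and 88.4 TPM in the B2_minus libraries and 23.9, 22.2 and 24.7 TPM in the control libraries. Every B2_minus library was over 3 times any control library, and the log2 fold change was 1.79 (SE 0.11, limma adjusted p = 3.21e-10). Its neighbour and close relative AKR1B15, named after its value was seen, also rose, to a mean of 3.06 TPM in B2_minus cells against 0.889 TPM in controls (log2 fold change 1.08), and reads of the 2 can be hard to separate. TXNRD1, the FAD-dependent reductase of cytosolic thioredoxin, had 51.9, 59.2 and 53.2 TPM against 24.7, 26.8 and 24.1 TPM in controls. SRXN1, sulfiredoxin, which repairs overoxidized peroxiredoxins, had 61.8, 59.7 and 66.5 TPM against 33.4, 29.5 and 29.3 TPM in controls. No control library reached the lowest B2_minus library in either gene, with log2 fold changes of 1.09 (SE 0.06, adjusted p = 1.84e-10) and 1.01 (SE 0.06, adjusted p = 4.33e-10).

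The glutathione branch of the NRF2 list moved too. SLC7A11, the cystine importer, had 12.7, 14.1 and 12.9 TPM in the B2_minus libraries and 5.47, 5.25 and 4.66 TPM in the control libraries, a log2 fold change of 1.22 (SE 0.09, adjusted p = 1.07e-08). GCLM and GCLC, the subunits of the enzyme that starts glutathione synthesis, averaged 12.7 ± 0.536 and 17.0 ± 0.681 TPM in B2_minus cells and 7.01 ± 0.767 and 10.6 ± 0.148 TPM in controls (SD, n = 3 each), with log2 fold changes of 0.78 and 0.64. GSR, the FAD-dependent glutathione reductase, was higher by 0.24 and kept its call in 3 of the 6 fits with 1 library left out. The other called members were ABCC2, AKR1C1, AKR1C2, AKR1C3, FTH1, FTL, HMOX1, MAFG, NQO1, OSGIN1, PGD, SLC48A1, TALDO1 and TXN, between 0.23 (FTL and TALDO1) and 0.83 (AKR1C2). AKR1C1, AKR1C2 and AKR1C3 are near copies, so their separate values are uncertain. Members that did not pass included PIR at 0.36, BLVRB at 0.13, TKT at 0.12 and ABCC3 at 0.11. The list counted 17 to 20 higher members with 1 library left out.

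A pair of genes outside that list are close to it in function. PTGR1, prostaglandin reductase 1, which saturates reactive double bonds of lipids, had 40.2, 43.2 and 42.4 TPM in the B2_minus libraries and 15.3, 16.1 and 16.9 TPM in the control libraries (log2 fold change 1.33, SE 0.11, adjusted p = 5.66e-08). SQSTM1, the autophagy receptor that binds the NRF2 inhibitor KEAP1, had 159, 165 and 162 TPM against 95.8, 92.1 and 101 TPM in controls (log2 fold change 0.75, SE 0.05, adjusted p = 3.36e-10). Both groups of SQSTM1 values were tight and lay far apart. Among 11 glutathione transferases, by contrast, only MGST1 was called, at 0.39, with a list median of -0.06.

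Genes of the ATF4 pathway rose as well. ATF4 is made when eIF2α is phosphorylated, and it switches on amino acid synthesis, amino acid import and feedback regulators. Of 16 tested regulators and targets 12 were higher and 0 lower, with a median of 0.45, where 2.74% of all tested genes were higher. STC2, a secreted glycoprotein (chr5:173314723-173329503), had 44.5, 42.7 and 42.2 TPM in the B2_minus libraries and 18.0, 18.9 and 20.1 TPM in the control libraries. Both groups were narrow, and the log2 fold change was 1.14 (SE 0.05, adjusted p = 7.44e-12). DDIT4, an inhibitor of the growth kinase mTORC1, had 57.3, 54.2 and 57.8 TPM against 28.3, 29.0 and 28.8 TPM in controls (log2 fold change 0.95). GDF15, a stress cytokine, had 755, 738 and 731 TPM against 401, 410.1 and 401 TPM in controls (log2 fold change 0.87, adjusted p = 2.68e-08). The groups of these 3 genes were widely separated in all libraries. NUPR1, a small stress-induced nuclear protein, averaged 133 ± 7.27 TPM in B2_minus cells and 76.8 ± 4.28 TPM in controls (SD, n = 3 each; log2 fold change 0.78). ATF4 itself was higher by 0.43, SESN2 by 0.54, VEGFA by 0.47, PPP1R15A by 0.46, CEBPB by 0.45, CDKN1A by 0.44, TRIB3 by 0.40 and CEBPG by 0.29. DDIT3, which encodes CHOP, did not pass (0.27, adjusted p = 0.369), nor did ATF3 (0.43, adjusted p = 0.0580), VLDLR (0.37) or ATF5 (0.06). GDF15 and CDKN1A are also p53 targets and VEGFA is also a hypoxia gene. INHBE, the βE subunit of activins and in no list used here, had 18.7, 18.9 and 18.7 TPM against 9.18, 9.29 and 9.06 TPM in controls (log2 fold change 0.96, adjusted p = 1.61e-08).

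Amino acid genes moved in part, where 2.74% of all tested genes were higher and 2.0% lower. Of 16 synthesis genes 6 were higher and 1 lower, of 13 transporters 7 were higher and 0 lower, and of 20 cytosolic aminoacyl-tRNA synthetases 7 were higher and 0 lower, with medians of 0.13, 0.37 and 0.13. ASNS, asparagine synthetase, had 16.5, 19.6 and 16.4 TPM in the B2_minus libraries and 8.21, 7.44 and 8.67 TPM in the control libraries (log2 fold change 1.02, SE 0.08, adjusted p = 2.37e-08). CTH, which makes cysteine from cystathionine, had 5.20, 4.08 and 6.81 TPM against 2.00, 2.46 and 2.72 TPM in controls and varied more among the B2_minus libraries (log2 fold change 0.89, SE 0.15). MTHFD2, a mitochondrial folate enzyme, had 63.3, 64.4 and 57.2 TPM against 35.3, 37.6 and 33.5 TPM in controls (log2 fold change 0.78, adjusted p = 1.42e-07). The first enzyme of serine synthesis, PHGDH, was higher by 0.46, SHMT2 by 0.40 and PSAT1 by 0.39. ALDH18A1, the first enzyme of proline synthesis, was lower, at -0.39 (adjusted p = 0.00481). Among transporters SLC3A2, the heavy chain that pairs with SLC7A5 and SLC7A11, had 118, 126 and 126 TPM against 78.0, 89.9 and 85.2 TPM in controls (log2 fold change 0.54, adjusted p = 1.62e-05). SLC6A9, SLC1A5, SLC7A5, SLC7A1 and SLC38A1 were higher by 0.37 to 0.52. The called tRNA synthetases, YARS, CARS, GARS, MARS, SARS, TARS and NARS, were higher by 0.18 to 0.43. Among 20 genes of nucleotide and one-carbon metabolism 3 were higher (MTHFD2, MTHFD1L and SHMT2, the mitochondrial folate enzymes) and 0 lower, with a median of 0.00.

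The C/EBP-ATF response element, the stretch of DNA that ATF4 binds with a C/EBP partner, was searched as TGATGNAAN on both strands of RefSeq promoters (GRCh38.p14, 250 bases before to 50 after 1 start per gene, which need not be the start of the transcript in the authors' file). Of the 7 called transporters 6 have a promoter in the RefSeq table, and 3 of these (SLC3A2, SLC7A1 and SLC38A1) hold the letters, as do 3 of the 11 tested transporters with a promoter and 3.67% of all 27305 promoters in the table. Of the 6 called amino acid synthesis genes with a promoter only ASNS holds the letters, while GOT1, not called, holds them as well. No called member of the ATF4 list with a promoter does (0 of 10), while ATF3, not called, does. A match is a run of letters and no evidence of binding. These lists hold genes known to answer ATF4, so their share of the element is no independent evidence. The share over all 342 higher genes is not given, because 78.1% of them have a promoter in the table, under the 80% required. The promoters of the 2 called genes with a match and the largest fold changes are shown 5′ to 3′ on the gene's strand, with the match in capitals. ASNS lies on the minus strand at chr7:97872359-97872658, with its match starting 68 bases before the start, and SLC3A2 on the plus strand at chr11:62881449-62881748, with a reverse-strand match from base 37 after it.
ASNS: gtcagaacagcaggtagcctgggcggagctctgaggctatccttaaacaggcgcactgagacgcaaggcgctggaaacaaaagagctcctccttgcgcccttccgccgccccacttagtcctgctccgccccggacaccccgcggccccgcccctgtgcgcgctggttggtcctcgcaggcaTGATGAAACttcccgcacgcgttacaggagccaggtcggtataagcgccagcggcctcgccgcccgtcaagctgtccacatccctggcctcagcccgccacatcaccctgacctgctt
SLC3A2: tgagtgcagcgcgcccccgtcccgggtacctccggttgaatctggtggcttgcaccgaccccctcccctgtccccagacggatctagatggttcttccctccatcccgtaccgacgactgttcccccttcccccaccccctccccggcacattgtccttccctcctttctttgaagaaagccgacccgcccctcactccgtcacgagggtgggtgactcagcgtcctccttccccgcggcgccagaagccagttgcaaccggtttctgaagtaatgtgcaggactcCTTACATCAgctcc

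Chaperones of the endoplasmic reticulum fell. Of 23 tested genes 17 were lower and 0 higher, with a median of -0.36, where 2.0% of all tested genes were lower. HSPA5, the reticulum's main Hsp70 (BiP), had 77.4, 70.7 and 70.8 TPM in the B2_minus libraries and 116, 125 and 123 TPM in the control libraries, a log2 fold change of -0.73 (SE 0.07, adjusted p = 1.27e-07). HYOU1, its nucleotide exchange factor, had 27.6, 26.5 and 26.8 TPM against 42.1, 43.3 and 45.2 TPM in controls (log2 fold change -0.67, adjusted p = 1.29e-08). MANF, a small secreted reticulum protein, had 148, 146 and 151 TPM against 232, 236 and 242 TPM in controls (log2 fold change -0.67, adjusted p = 1.27e-07). In all 3 the highest B2_minus library was well under the lowest control library. SDF2L1 was more variable among controls, with 29.4, 24.0 and 30.3 TPM in the B2_minus libraries and 50.5, 40.8 and 58.1 TPM in the control libraries (log2 fold change -0.81, SE 0.14). The Hsp90 of the reticulum, HSP90B1, averaged 295 ± 11.9 TPM in B2_minus cells and 428 ± 8.66 TPM in controls, and the lectin chaperone CALR 219 ± 7.20 TPM and 303 ± 1.56 TPM (SD, n = 3 each; log2 fold changes -0.53 and -0.47). The disulfide isomerases PDIA4, PDIA6, P4HB and PDIA3 were lower, at -0.64, -0.36, -0.30 and -0.28. DNAJB9, DNAJC3, CRELD2, DNAJB11, CANX, XBP1 and SEL1L made up the rest, at -0.59 to -0.24. Members that did not pass were SYVN1, HERPUD1, ERO1A, CRELD1, EDEM1 and ATF6, at -0.10 to 0.12. NUCB2, a calcium-binding protein of the secretory path outside the list, had 44.6, 42.6 and 44.4 TPM against 69.6, 72.7 and 67.0 TPM in controls (log2 fold change -0.66). Chaperones of other compartments gave few calls. Of 13 cytosolic heat shock proteins 1 was lower by limma (HSP90AA1, -0.23, called in 1 of 6 fits with 1 library left out) and 3 by voom. In that list 6 had an unadjusted p under 0.05, and the median was -0.15. Of 12 mitochondrial chaperones and proteases 0 were called by limma (1 at an unadjusted p under 0.05) or by voom, at -0.19 to 0.17.

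The reticulum stress element, to which ATF6 and NF-Y bind together, was searched as CCAAT, 9 bases of any kind and CCACG on both strands. It is rare: 22 of the 27305 RefSeq promoters hold it (0.0806%). Of the 17 called chaperones 16 have a promoter, and 6 of them hold it (CALR, CANX, CRELD2, HSP90B1, HSPA5 and XBP1). Of the 205 lower genes with a promoter (82.0% of the lower genes have one) 7 hold it, a count that includes these 6. The chaperone list was drawn up from what is known of this response, so its share of the element is no independent evidence. The promoters of HSPA5, on the minus strand at chr9:125241294-125241593, and HSP90B1, on the plus strand at chr12:103930160-103930459, are shown with their 1 and 2 matches in capitals, the second of HSP90B1 read on the reverse strand.
HSPA5: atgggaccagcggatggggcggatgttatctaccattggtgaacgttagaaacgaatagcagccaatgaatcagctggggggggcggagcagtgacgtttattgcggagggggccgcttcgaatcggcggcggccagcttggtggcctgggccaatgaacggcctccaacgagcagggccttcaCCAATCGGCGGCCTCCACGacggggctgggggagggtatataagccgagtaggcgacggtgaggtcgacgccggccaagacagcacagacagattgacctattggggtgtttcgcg
HSP90B1: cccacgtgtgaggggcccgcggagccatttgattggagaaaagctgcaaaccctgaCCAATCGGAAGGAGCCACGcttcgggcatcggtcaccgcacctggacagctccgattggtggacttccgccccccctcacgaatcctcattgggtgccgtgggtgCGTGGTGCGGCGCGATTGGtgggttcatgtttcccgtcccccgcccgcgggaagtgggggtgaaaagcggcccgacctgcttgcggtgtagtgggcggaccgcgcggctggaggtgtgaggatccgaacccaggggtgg

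Genes of cholesterol synthesis fell too. Of 24 genes of cholesterol synthesis and uptake 13 were lower and 0 higher, where 2.0% of all tested genes were lower. The list's median was -0.27, and 9 to 11 members were lower with 1 library left out. MVD, mevalonate diphosphate decarboxylase (chr16:88651940-88663149), had 8.90, 9.28 and 9.10 TPM in the B2_minus libraries and 16.8, 15.1 and 18.9 TPM in the control libraries (log2 fold change -0.82, SE 0.17, adjusted p = 0.00501). FDPS, farnesyl diphosphate synthase, had 55.3, 55.5 and 55.6 TPM against 82.9, 85.1 and 71.6 TPM in controls (log2 fold change -0.51). FDFT1, squalene synthase, had 143, 144 and 139 TPM against 192, 184 and 186 TPM in controls (log2 fold change -0.40, adjusted p = 1.38e-04). Control libraries were the higher ones without exception in these 3. HMGCS1, IDI1, SQLE, ACAT2, MVK, STARD4, MSMO1, LSS and CYP51A1 were lower, at -0.36 to -0.18. SREBF2, the gene of SREBP-2, did not pass (0.00). Among 19 genes of fatty acid and triglyceride synthesis 3 were lower (SCD -0.29, ACSS2 -0.35 and FADS2 -0.26) and 0 higher, with a median of -0.09. SCD held in all 6 fits with 1 library left out, FADS2 in 2 and ACSS2 in 0.

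**Figure D3:**
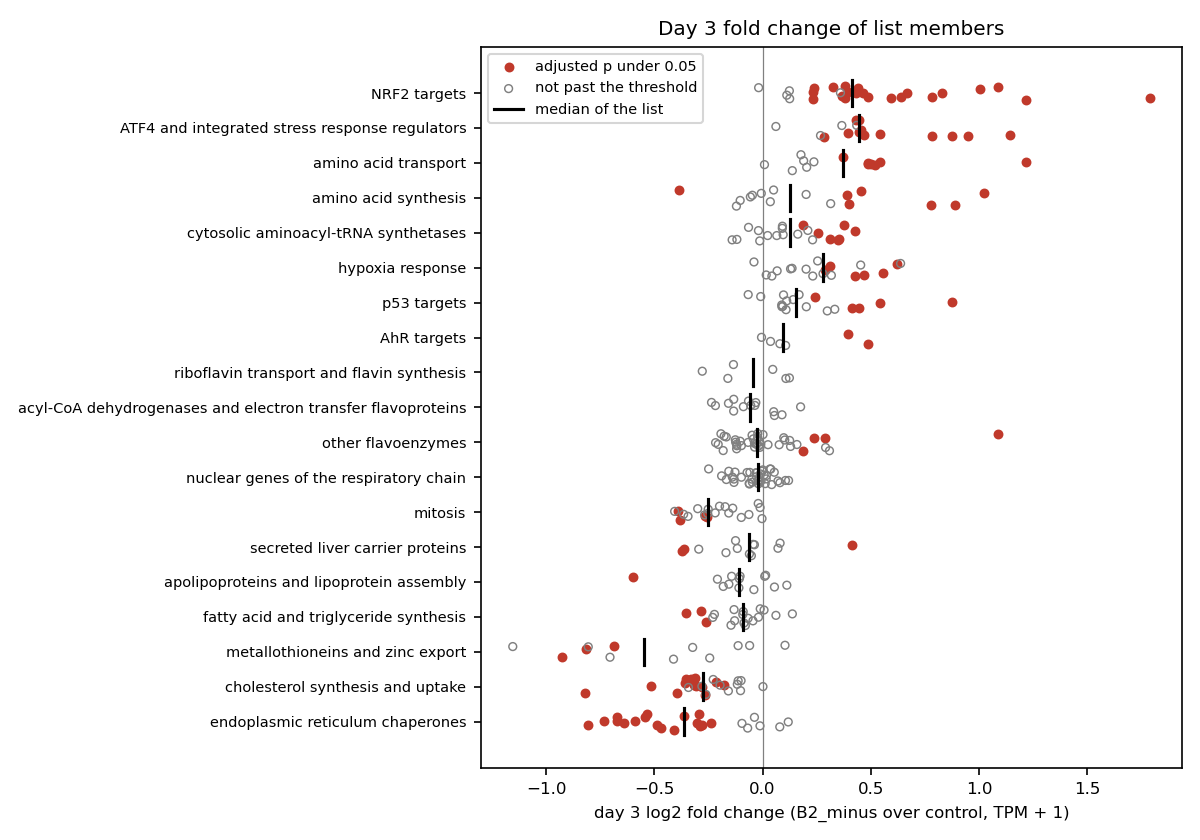
Day 3 log2 fold change (B2_minus over control, on TPM + 1) of every tested member of 19 gene lists. Each point is a gene, filled in red where the limma adjusted p was under 0.05, and the bar is the list's median. The NRF2, ATF4 and amino acid transport lists have medians of 0.41, 0.45 and 0.37, the chaperones -0.36 and the respiratory chain -0.02.

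Of the metallothioneins, small proteins that bind zinc and copper, MT1X, MT1F and MT1E were lower in B2_minus cells. MT1X had 179.7, 178 and 198 TPM in the B2_minus libraries and 364, 351 and 343 TPM in the control libraries (chr16:56682470-56684196, log2 fold change -0.93, SE 0.17, adjusted p = 0.00355). MT1F had 367, 361 and 421 TPM against 682, 661 and 675 TPM in controls, and MT1E 1134, 1071 and 1199 TPM against 1825, 1836 and 1821 TPM in controls. Each group was narrow and the 2 lay far apart. With the spread pooled over all 24 libraries the adjusted p was 0.0448 for MT1F and 0.0414 for MT1E, and with the 6 day 3 libraries alone 2.79e-05 and 1.22e-05. In the list of 12 metallothionein and zinc genes these 3 were lower and 0 higher, where 2.0% of all tested genes were lower. The list's median was -0.55, with a range up to 0.10. MT2A had 5696, 5497 and 6357 TPM against 8253, 7425 and 7641 TPM in controls and did not pass (log2 fold change -0.41, adjusted p = 0.0696). Whichever library was left out, 1 member was called. With the day 3 libraries alone 6 were lower, and with voom and quantile normalization on reads recovered from the TPM, added after seeing the data, 7. These genes are near copies and can share reads. SNAR-E, a small noncoding RNA of a family of near copies, had 25.3, 34.1 and 28.4 TPM in the B2_minus libraries and 70.1, 75.1 and 79.7 TPM in the control libraries (log2 fold change -1.34, SE 0.29).

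Iron genes split. The ferritin heavy chain FTH1 had 659, 604 and 662 TPM in the B2_minus libraries and 496, 499 and 483 TPM in the control libraries (log2 fold change 0.38, adjusted p = 1.01e-04). SLC40A1, ferroportin, the iron exporter, had 23.3, 23.3 and 20.6 TPM against 15.9, 16.4 and 15.8 TPM in controls (log2 fold change 0.45). FTL, the light chain, was higher by 0.23, so the 3 higher genes were those of export and storage. FTH1 and FTL are NRF2 list members already counted above, as are the 2 higher haem genes named below. Lower were SLC39A14, an importer of iron and zinc (-0.33), and BMP6, the ligand that induces hepcidin (-0.32). Hepcidin itself, HAMP, had 251, 267 and 261 TPM against 292, 320.1 and 273 TPM in controls and did not pass (-0.18, adjusted p = 0.569). The list held 3 higher and 2 lower of 15, and the list of haem synthesis and breakdown 2 higher of 14 (HMOX1, haem oxygenase, at 0.44, and the haem transporter SLC48A1 at 0.37, called in 2 of 6 fits with 1 library left out).

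Genes that handle the vitamin itself were not among the calls, which took in 4.74% of all genes tested (2.74% higher, 2.0% lower). At that share 0 calls among 6, 14 or 38 genes do not set a list apart. Of 6 tested genes of riboflavin transport and flavin synthesis 0 were called by limma (1 at an unadjusted p under 0.05) or by voom, with a median of -0.04. The transporter SLC52A2 had 19.5, 16.8 and 18.6 TPM in the B2_minus libraries and 17.3, 15.1 and 17.7 TPM in the control libraries (log2 fold change 0.12, adjusted p = 0.477). RFK had 18.0, 18.6 and 16.1 TPM against 17.4, 16.6 and 16.9 TPM in controls (0.05, adjusted p = 0.827), and in both genes the groups overlapped. FLAD1 had 3.72, 3.63 and 3.07 TPM against 5.08, 3.97 and 4.25 TPM in controls and did not pass either (-0.28, adjusted p = 0.263). SLC52A1 and SLC52A3 were at most 0.206 and 0.165 TPM in any day 3 library and were not tested. Among the acyl-CoA dehydrogenases with the electron transfer flavoproteins that serve them, 0 of 14 were called by limma, at -0.24 to 0.18 (3 at an unadjusted p under 0.05), and 1 was lower by voom. Of 40 other flavoenzymes 4 were higher and 0 lower, with a median of -0.02: TXNRD1, GSR, AIFM2 (0.29) and CYB5R3 (0.19), the first 2 being NRF2 targets as well. AIFM2 and CYB5R3 lost their call whichever library was left out. Of 38 nuclear genes of the respiratory chain 0 were called by limma, at -0.25 to 0.12 (4 at an unadjusted p under 0.05), and 1 was lower by voom. In the tricarboxylic acid cycle and pyruvate oxidation 2 of 19 were lower, DLAT (-0.36, called in 3 of 6 fits with 1 library left out) and SUCLG1 (-0.28, in 4), with a median of -0.07.

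AHR, ARNT and the AhR targets CYP1A1 and TIPARP were not called at day 3. AHR had 4.97, 4.78 and 4.23 TPM in the B2_minus libraries and 4.04, 4.13 and 3.68 TPM in the control libraries (log2 fold change 0.19, adjusted p = 0.179), and its partner ARNT 3.14, 3.06 and 3.34 TPM against 3.89, 3.52 and 3.70 TPM in controls (-0.17, adjusted p = 0.293). The 2 groups did not overlap in either gene, as in 24.9% of all genes tested. CYP1A1, the cytochrome P450 most used as a readout of AhR, had 6.75, 4.05 and 5.82 TPM against 4.95, 5.17 and 6.35 TPM in controls. Its groups overlapped, with a log2 fold change of 0.00 (SE 0.12, adjusted p = 0.993). TIPARP, another AhR target, had 5.71, 5.59 and 4.90 TPM against 5.29, 5.12 and 4.74 TPM in controls (0.08, adjusted p = 0.635). CYP1B1 and AHRR were at most 0.0960 and 0.230 TPM and were not tested. Of all genes tested 2.74% were higher. Of 6 tested members of the AhR list 2 were higher and 0 lower, with a median of 0.09. These were NQO1, with 312, 308 and 322 TPM against 241, 244 and 231 TPM in controls (log2 fold change 0.39, adjusted p = 2.83e-04), and SLC7A5, with 68.6, 69.8 and 67.4 TPM against 45.5, 51.1 and 49.4 TPM in controls (log2 fold change 0.49, adjusted p = 5.16e-05). NQO1 is an NRF2 target as well, and SLC7A5 an ATF4 target. In the kynurenine pathway, which makes AhR ligands from tryptophan, 1 of 9 was higher (KYNU, 0.38, called in 2 of 6 fits with 1 library left out).

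Some hypoxia and p53 targets rose, where 2.74% of all tested genes were higher. Of 19 hypoxia genes 6 were higher and 0 lower, with a median of 0.28. VEGFA, the vessel growth factor, had 26.7, 26.7 and 22.8 TPM in the B2_minus libraries and 17.2, 18.9 and 18.0 TPM in the control libraries (log2 fold change 0.47, adjusted p = 8.31e-05). BNIP3L, a receptor for mitophagy, had 20.6, 18.7 and 19.3 TPM against 14.8, 14.6 and 13.5 TPM in controls (0.43), and PDK1, the kinase that shuts pyruvate dehydrogenase, 3.22, 3.29 and 2.72 TPM against 1.58, 2.08 and 1.67 TPM in controls (0.55). No control library of these 3 genes reached a B2_minus library. ANKRD37 was higher by 0.62 (called in 4 of 6 fits with 1 library left out), BNIP3 by 0.31 and KDM3A by 0.29. CA9, carbonic anhydrase 9, averaged 0.934 TPM in B2_minus cells against 0.256 TPM in controls and did not pass (0.64, adjusted p = 0.0583). Among 14 glycolytic genes 2 were higher (ENO2 0.46 and GAPDH 0.16), with a median of 0.17, and these held in 1 and 0 of the 6 smaller fits. Of 18 p53 targets 5 were higher and 0 lower, with a median of 0.16. BBC3, the proapoptotic protein PUMA, averaged 57.2 ± 5.12 TPM in B2_minus cells and 39.0 ± 3.45 TPM in controls (SD, n = 3 each, log2 fold change 0.54, limma adjusted p = 2.55e-05). CDKN1A, the cell cycle inhibitor p21, had 90.9, 86.7 and 88.6 TPM against 64.0, 62.1 and 69.0 TPM in controls (0.44, adjusted p = 9.67e-06), and MDM2, which degrades p53, was higher by 0.41. In both the groups did not overlap. GDF15 and SESN1 (0.24) were the other 2.

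A list of 8 tested genes joins genes of gluconeogenesis with genes that insulin represses. In it IGFBP1, the binding protein of insulin-like growth factors, had 14.1, 16.5 and 13.2 TPM in the B2_minus libraries. In the control libraries IGFBP1 had 6.75, 7.04 and 6.58 TPM (log2 fold change 1.00, SE 0.18, limma adjusted p = 0.00216). PCK2, the mitochondrial carboxykinase, was higher by 0.32 but lost its call with any library left out, and PCK1 was at 0.274, 0.402 and 0.399 TPM against 0.577, 0.762 and 0.674 TPM in controls (-0.30, adjusted p = 0.179). That list had 2 of 8 higher, where 2.74% of all tested genes were higher. Of 15 PPARA and fatty acid oxidation genes 2 were higher, CPT1A (0.38), which lets long fatty acids into mitochondria, and PLIN2 (0.35), which coats lipid droplets. FABP1, the fatty acid carrier of hepatocytes, was the 1 lower member, with 612, 544 and 583 TPM against 841, 838 and 892 TPM in controls (log2 fold change -0.56, adjusted p = 5.03e-05).

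Secreted liver proteins were mostly not called, with a few clear falls, where 2.74% of all tested genes were higher and 2.0% lower. APOB, the protein of very low density lipoprotein, had 313, 311 and 287 TPM in the B2_minus libraries and 474, 466 and 438 TPM in the control libraries (log2 fold change -0.60, SE 0.06, adjusted p = 1.66e-06). It was the single call, lower, among 13 apolipoprotein genes (median -0.11). AFP, the fetal serum protein that HepG2 makes, had 684, 657 and 668 TPM against 867, 891 and 832 TPM in controls (-0.36, adjusted p = 7.55e-04). TTR, transthyretin, had 212, 192 and 221 TPM against 288, 249 and 272 TPM in controls (-0.37, adjusted p = 0.00169). Both groups of both genes were apart. With ceruloplasmin CP higher (0.41, called in 2 of 6 fits with 1 library left out), 1 carrier protein of 13 was higher and 2 were lower, at a median of -0.06. Of 23 coagulation, complement and inhibitor genes 3 were lower, A2M, α2-macroglobulin (-0.36), which held in all 6 smaller fits, and F5 and CFI (-0.22 and -0.21), which held in 2 each. F7, coagulation factor VII, was the 1 higher gene of that list (0.50, called in 4 of 6). Fibrinogen genes FGG and FGB were lower, at -0.28 and -0.25 among 12 acute phase genes (median -0.17), each called in 1 of 6 smaller fits. Of 17 liver transcription factors 2 were higher, CEBPB (0.45) and ONECUT2 (0.28, called in 2 of 6), while HNF4A was at -0.03 and CEBPA at 0.06. Of 12 bile acid genes and 8 urea cycle genes 0 were called by limma (3 and 1 at an unadjusted p under 0.05) or by voom, with medians of -0.08 and 0.00. Of 9 glucuronidation and P450 genes UGT2B10 was lower (-0.57, adjusted p = 3.10e-05) and CYP24A1 higher (0.63).

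A few cell cycle genes were lower. Of 21 mitosis genes 4 were lower and 0 higher, with a median of -0.25, where 2.0% of all tested genes were lower. PLK1, polo-like kinase, had 52.8, 54.7 and 53.7 TPM in the B2_minus libraries and 65.5, 72.4 and 73.4 TPM in the control libraries (log2 fold change -0.38, adjusted p = 0.00266) and held in all 6 fits with 1 library left out. UBE2C (-0.39) held in 4 and AURKB and AURKA (-0.27 and -0.26) in 1 each. With voom on recovered reads the list had 11 lower members. Of 21 DNA replication genes MCM7 was lower (-0.28), a call lost with any library left out, and the median was -0.14. With voom on recovered reads 5 of them were lower, and with the day 3 libraries alone 5.

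Signalling and matrix genes gave isolated changes, where 2.74% of all tested genes were higher and 2.0% lower. Of 14 S100 and matrix genes 5 were higher and 0 lower, at a median of 0.23, among them S100P (0.59), S100A11 (0.51), TIMP1 (0.42, called in 3 of 6 fits with 1 library left out) and LGALS3 (0.38). SPP1, osteopontin, had 832, 789 and 755 TPM in the B2_minus libraries and 557, 541 and 529 TPM in the control libraries (0.54, adjusted p = 1.58e-04). Of 10 progenitor and biliary genes it was higher with CLDN4 (0.35, held in 4 of 6 smaller fits), while AFP was lower. Of 19 MAPK feedback and immediate early genes DUSP5 (0.58), SPRY4 (0.44, held in 5 of 6) and JUN (0.41) were higher. Of 8 chemokine and NF-κB genes CXCL8 (0.53) and CCL20 (0.38) were higher, of which CXCL8 held in 4 and CCL20 in 2 of 6 smaller fits. Of 21 lysosome and autophagy genes 4 were higher, SQSTM1, MAP1LC3B (0.31), CTSB (0.30) and CTSL (0.25), and WIPI1 was lower (-0.34). MAP1LC3B held in 0 and WIPI1 in 2 of the 6 smaller fits. Of 6 imprinted growth genes PEG10 (-0.48, adjusted p = 2.55e-05) and DLK1 (-0.24) were lower and GRB10 (0.34) higher, the last 2 held in 1 and 2 smaller fits. RASD1, a Ras-like GTPase in no list used here, had 16.6, 16.6 and 18.8 TPM against 8.74, 8.18 and 10.2 TPM in controls (0.87). MAGED1, an adaptor protein also in no list, had 49.9, 47.9 and 53.1 TPM against 86.0, 77.8 and 70.8 TPM in controls (log2 fold change -0.62, adjusted p = 7.04e-05). Neither gene had overlapping groups. Lists with 0 calls by limma were proteasome subunits (26 tested, median -0.10), cytosolic ribosomal proteins (33, 0.04), interferon-stimulated genes (14, 0.00), YAP targets (10, 0.07) and inositol and osmotic genes (8, 0.01). At an unadjusted p under 0.05 they held 4, 4, 0, 2 and 1 genes, and by voom 0, 2, 0, 1 and 1. With 4.74% of all tested genes called, 0 calls do not set lists of these sizes apart.

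Most day 3 differences were seen again at the next time. Of the 342 higher genes 286, 251 and 230 were higher on days 6, 9 and 12, and 206 on all 3. Of the 250 lower genes 207, 172 and 113 were lower on these days, and 106 on all 3. Each day has its own controls, so the fold changes of different days share no library. Their p-values share each gene's spread, pooled over all 24 libraries, so a repeated call is not independent of the day 3 call. The background grew meanwhile: across days 6, 9 and 12, 19.0%, 29.4% and 34.0% of all tested genes were higher, and 14.0%, 19.7% and 18.4% lower. The median log2 fold change of the genes higher on day 3 was 0.39, and on days 6, 9 and 12 it was 0.57, 0.55 and 0.44. For the lower genes these medians were -0.33, -0.54, -0.46 and -0.11. The difference itself was also tested between days. The limma contrast of the later minus the day 3 difference passed for 10.3%, 31.0% and 37.7% of tested genes on days 6, 9 and 12.

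Some early differences were wider at day 12 than at day 3. AKR1B10 had log2 fold changes of 1.79, 3.12, 4.64 and 4.37 at days 3, 6, 9 and 12, PTGR1 1.33, 1.97, 2.33 and 2.72, and GDF15 0.87, 1.55, 2.03 and 2.10. For all 3 the log2 fold change at day 12 exceeded that of day 3 (adjusted p of the difference 1.70e-11, 4.96e-07 and 2.94e-09). Other genes had their highest log2 fold change at day 6, a peak that was not tested as such: ASNS had 1.02, 1.89, 1.32 and 0.75, STC2 1.14, 1.64, 0.93 and 0.34, and INHBE 0.96, 1.96, 1.25 and -0.07. At day 12 INHBE and MTHFD2 no longer passed (-0.07 and 0.10), with a difference from day 3 of -1.03 (adjusted p = 9.01e-08) and -0.68 (adjusted p = 1.26e-05). Such genes were picked because this difference passed, so its adjusted p is no independent evidence. IGFBP1 and ETS2, a transcription factor, were 2 more of this kind: IGFBP1 had 1.00, -0.51, -1.35 and -0.30 over the 4 days and ETS2 0.58, 0.45, 0.03 and -0.01, with differences between days 12 and 3 of -1.30 and -0.59. By list, 8 of 16 ATF4 members were higher and 5 lower at day 12, and 23 of 26 NRF2 members were higher and 1 lower, beside 34.0% of all tested genes higher and 18.4% lower on that day.

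**Figure D4:**
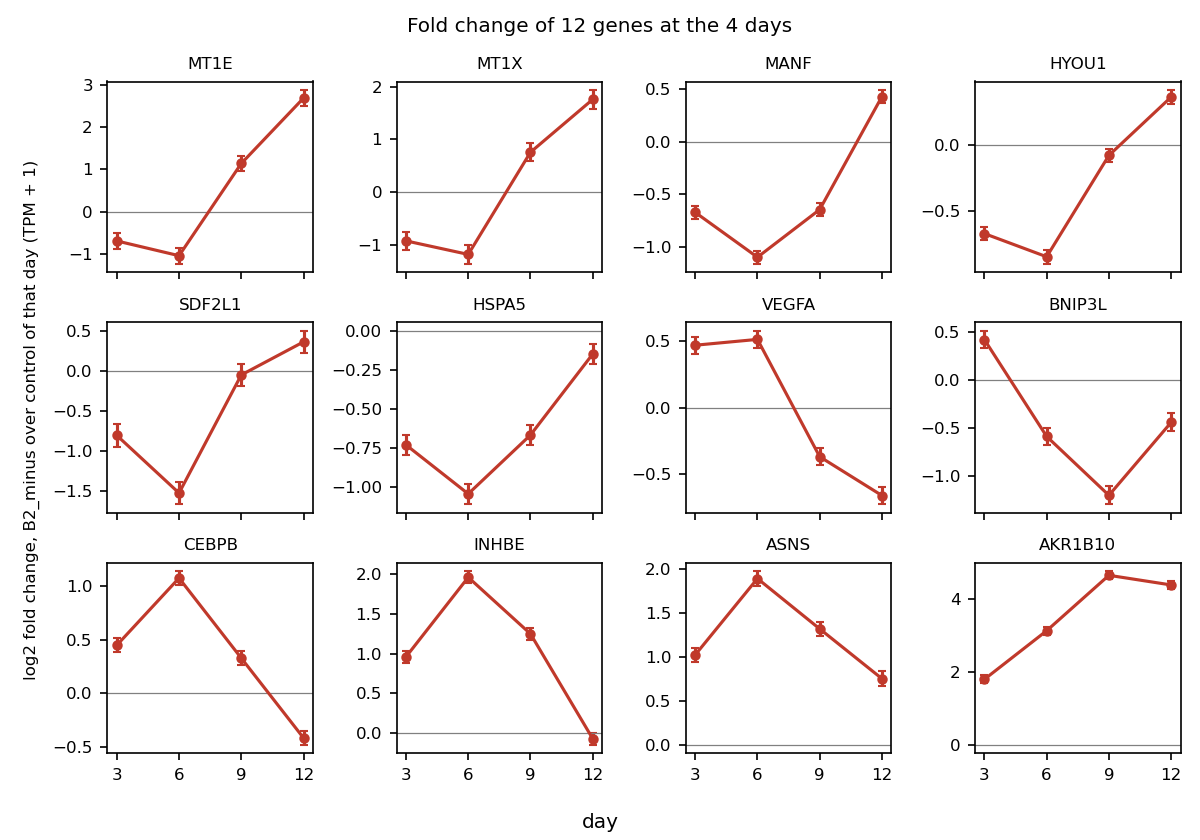
Log2 fold change (B2_minus over the controls of the same day, on TPM + 1) of 12 genes at days 3, 6, 9 and 12, with the limma standard error as bars and a separate vertical scale for each gene. MT1E passes from -0.69 at day 3 to 2.68 at day 12 and VEGFA from 0.47 to -0.66, while AKR1B10 stays above 0 throughout.

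Other genes turned round. Among day 3 calls, 34 higher genes were lower at day 12 and 63 lower genes were higher, of which 21 and 56 averaged at least 10 TPM. In the genes described here the control level itself moved over the days. MT1E averaged 1135, 981, 745 and 506 TPM in B2_minus cells and 1827, 2009, 356 and 78.5 TPM in controls at days 3, 6, 9 and 12 (n = 3 each), with SDs at day 12 of 7.25 and 11.3 TPM. The control mean was thus the higher one at days 3 and 6 and the lower one at days 9 and 12, with a log2 fold change of 2.68 at day 12 and a difference from day 3 of 3.37 (adjusted p = 2.41e-08). As MT1E is described here for its opposite calls at days 3 and 12, this adjusted p is no independent evidence. HYOU1 averaged 27.0 and 25.0 TPM in B2_minus cells at days 3 and 12 and 43.5 and 19.3 TPM in controls, and VEGFA 25.4 and 39.5 TPM in B2_minus cells and 18.0 and 63.2 TPM in controls. In these genes the control mean moved further than the B2_minus mean between the days, which was not tested. MT1X, MT1F and SNAR-E were also higher at day 12, with day 12 log2 fold changes of 1.76, 0.75 and 1.17. The chaperones HYOU1, SDF2L1 and MANF were at 0.36, 0.36 and 0.43 on day 12. The chaperone list as a whole then held 6 higher and 10 lower of its 23 members, beside 34.0% of all tested genes higher and 18.4% lower, HSPA5 and DNAJC3 no longer passed (-0.15 and 0.09), and PDIA4 was still lower (-0.75). In the other direction, 6 genes with day 3 log2 fold changes of 0.43 to 0.47 were lower at day 12. There VEGFA was at -0.66, BNIP3L -0.44, CEBPB -0.42, RNASET2, a lysosomal ribonuclease, -0.66, the noncoding RNA SNHG7 -0.21 and the exporter ABCC2 -0.18. For BNIP3L the turn was already seen at day 6 (-0.59), for VEGFA and RNASET2 at day 9 (-0.37 and -0.78). The hypoxia list, with 6 higher members at day 3, held 1 higher and 12 lower of 19 at day 12, beside the same shares of all genes. DKK1, an inhibitor of Wnt signals, was at -0.56 on day 3 and 0.08 on day 12, and RPL17, called low at day 3 in 2 of 6 fits with 1 library left out, at -0.52 and 0.08.

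**Figure D5:**
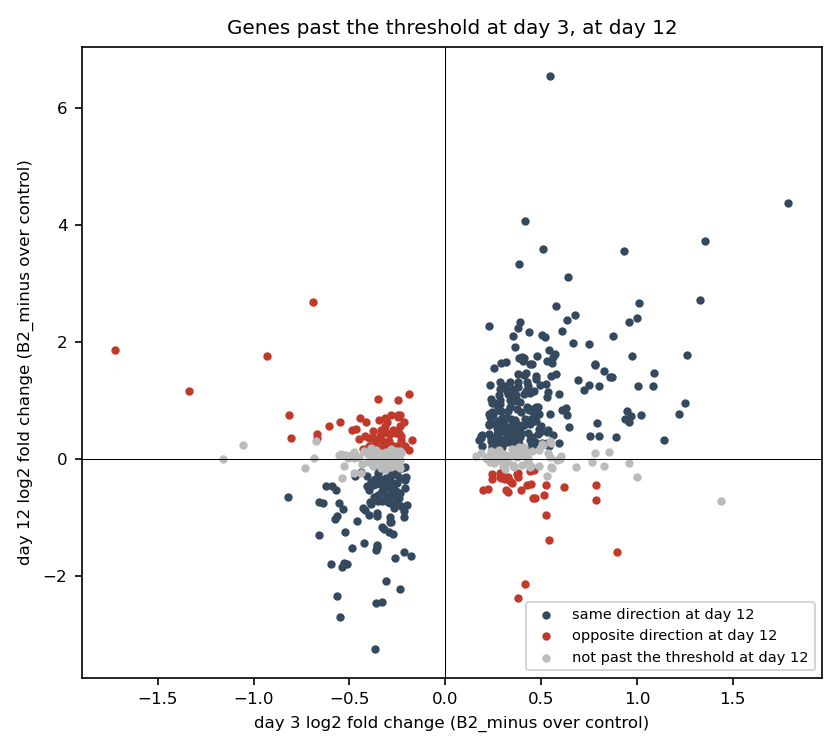
Day 12 against day 3 log2 fold change (B2_minus over control, on TPM + 1) of the 592 genes called at day 3. Dark points were called the same way at day 12 (230 higher, 113 lower), red points the opposite way (34 higher at day 3, 63 lower) and grey points were not called at day 12.

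Genes known to lead at day 12 showed small or no calls on day 3. SPP1 had a log2 fold change of 6.55 at day 12 and 0.54 at day 3. HAMP reached 5.85 and PCK1 -4.13 at day 12, and neither was called at day 3. AFP was at -0.36 and -3.24 on the 2 days, TIMP1 at 0.42 and 4.06, and CYP1A1 at 0.00 and 2.45. MT2A had -0.41 at day 3 and 4.23 at day 12. For these 7 genes the difference between the days passed (limma adjusted p at most 2.33e-10). All but CYP1A1 were chosen for their day 12 values in earlier results of these data, so for them this is no independent evidence. Of the 38 respiratory chain genes, 0 were called on day 3 and 31 were higher on day 12, and of 21 mitosis genes 4 were lower on day 3 and 13 higher on day 12. Over the same days the share of all tested genes called higher grew from 2.74% to 34.0%.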

How the data were processed

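HepG2 RNA, 500 ng a library, was made into QuantSeq libraries, which read the 3′ end of polyadenylated messages, per the labels' protocols. The submitters' processing notes name Bowtie2, HOMER and STAR, and hg38 beside mm10, without versions or roles. The values the authors deposited are TPM from HOMER (per the file headers), 1 transcript standing for each of 28035 gene symbols. They are not counts, and the listed genes sum to 359500 to 363275 TPM in the B2_minus libraries and 366976 to 368482 TPM in the control libraries. Low TPM times transcript length rose in whole steps (100% within 0.1, for up to 20 reads and transcripts up to 3000 bases), from which reads were recovered for depth and for the voom alternatives.

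Genes with at least 1 TPM in at least 3 of the 24 time-course libraries were kept, and limma 3.58.1 (R 4.3.3; trend, robust) was fitted to log2(TPM + 1) with a mean for each group, two-sided. Contrasts were B2_minus minus control at each day, and the later minus the day 3 contrast. The comparison, the 48 gene lists and the tests were chosen with earlier results of these data known. Genes named are the 12 highest and 12 lowest called genes with a mean of at least 10 TPM, up to 4 called members of each list by size, AhR and riboflavin genes and day 12 leaders, and called genes that turned or were lost by day 12. Other list members are named to account for the lists. Some genes are counted in these lists but not reported here by name. Alternatives were other filters, pseudocounts, normalizations, thresholds and fits, and each library left out. All 24 columns carry 1 run name, so no batch split was possible. The procedure was tested on simulated data.

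Replicates differed beyond sampling noise (chi-square per gene 2.41 to 3.26), so none were merged. Whole-read sampling is coarse for low genes, and a 3′ library without molecular identifiers counts reads, not molecules. Antisense and overlapping genes, such as RPL17 and its readthrough locus, and near copies (metallothioneins, SNAR, AKR1C genes, AKR1B10 with AKR1B15, FTH1, FTL and GAPDH with their pseudogenes) may share reads. Promoters are RefSeq's. Those of 9690 of the 12488 tested genes (77.6%) were found, by transcript accession or, failing that, by symbol. Elements for NRF2 (searched as TGACNNNGC) and SREBP-2 (ATCAC, 1 base of any kind and CCAC) were searched as well. Over all tested members, 73.1% of the NRF2, 70.8% of the cholesterol and 56.2% of the amino acid synthesis list had a promoter. These fell under 80%, so shares of motifs over these whole lists are not given.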

Additional observations from a re-analysis of the deposited data

Results flagged for a closer look

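The difference between B2_minus and control cells at a later day was tested against that at day 3, with separate controls for each day. By limma this difference between days passed for 1281 genes at day 6, 3869 at day 9 and 4707 at day 12.

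Among the named genes that were called one way at day 3 and the opposite way at day 12, the day 12 minus day 3 log2 fold change was 3.37 for MT1E, 2.69 for MT1X, 1.57 for MT1F and 2.51 for SNAR-E. It was 1.03 for HYOU1 and 1.17 for SDF2L1. In the other direction it was -1.13 for VEGFA, -1.12 for RNASET2, -0.87 for BNIP3L, -0.87 for CEBPB, -0.65 for SNHG7 and -0.64 for ABCC2. All of them passed the test of the difference, as opposite calls at the 2 days make nearly certain, so the passing is no further evidence. The causes were not tested.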

How the results depend on the processing

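Of 118 named genes called at day 3, none reversed under any alternative run, 78 kept their call with each of the 6 libraries left out and 9 lost it in all 6. Leaving out 1 library gave 215 to 247 higher and 131 to 163 lower genes, against 342 and 250. Voom on recovered reads gave 532 higher genes, and voom with quantile normalization, added after seeing the data, 394 lower genes, so that 49.8% of its calls were higher against 57.8%. The counts of higher and lower genes moved by less than 1.5 times without a filter, with a 5 TPM filter, a pseudocount of 0.1, quantile normalization or the day 3 libraries alone. The number of genes whose log2 fold change was above that of day 3 at day 9 was 3528 by voom, against 2265. At a threshold of 0.01, 115 higher genes were called the same way and 12 the opposite way at day 12 (230 and 34 at 0.05), and 54 and 19 lower genes (113 and 63). Same-numbered libraries deviated together little if at all (correlations of 0.009, 0.069 and 0.04 over 4868 genes), so a pairing by number is neither shown nor excluded. With the replicate number as a block 246 genes were higher and 162 lower. By that correlation control library 1 was closest to B2_minus library 3, and libraries 2 and 3 of each group to their own number. Except for fewer libraries or genes in a fit, the causes were not tested. At this depth, genes near 1 TPM rest on few reads.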
